A study of Mus musculus with 2 samples.

Results

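The genes described here encode 10 transcription factors that direct blood lineages: Gfi1, Gfi1b, Gata1, Gata2, Spi1, Runx1, Tal1, Fli1, Klf1 and Ikzf1. They were chosen by name, as regulators known from hematopoiesis, and comprise 10 of 22911 named genes and 16 of 56604 probes on the array. Of the 16 probes, 15 were well above background on both arrays, as the scanner software flags it, and every gene had at least 1 such probe. Gfi1, Klf1, Runx1 and Ikzf1 had several probes, while the other 6 genes had 1 probe each.

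The study asked how extracellular vesicles (EVs, membrane particles shed by cells) from leukemic spleen (SP) act on normal hematopoietic stem and progenitor cells. LKS+ cells, the lineage marker-negative, Kit+ and Sca-1+ fraction of bone marrow (BM), were taken from WT mice, propagated in serum-free medium that held 1% BSA, SCF (100 ng/ml) and IL-3 and IL-6 (each 10 ng/ml), and then exposed to SP-derived EVs at 150 μg/ml for 24 h. The control group received EVs of normal mouse spleen, and the CML group received EVs of CML mouse spleen, where chronic myeloid leukemia (CML) had been produced by transplanting LKS+ cells that carried a BCR-ABL retrovirus. Both groups of recipient cells were of normal genotype and shared the medium, the cytokines and the EV dose. The methods describe the CML donors of these EVs as irradiated, which the labels do not mention, so what leukemia and what irradiation of the donors contributed cannot be told apart. The WT mice of the study were young males of the BALB/c and C57BL/6J strains, and the sources used here do not state which of these gave the cells for the arrays. No array of cells without EVs was analysed here.

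Each condition had 1 array, both on 1 slide read in 1 scan, so no difference has a replicate check and no p-value was computed. Of 59305 non-control spots per array, 54.4% were well above background with control EVs and 53.3% with CML EVs, and none was saturated. The error given below is the scanner software's estimate for each spot, about 0.20 on the log2 scale for a ratio of bright spots. It does not cover differences between cultures. Spots of probes spotted 10 times varied less. Their median SD of the log2 ratio was 0.034 at a log2 signal of 8 or more. A ratio within the scanner error is therefore not shown to be equal. Across 13412 genes well above background on both arrays, the middle 95% of log2 ratios, CML EVs over control EVs, lay between -0.44 and 0.47. A difference of at least 1.5-fold was seen for 204 genes (1.52%) in the higher and for 158 genes (1.18%) in the lower direction. The split was 271 higher and 112 lower with median scaling and 239 higher and 119 lower with quantile normalization.

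The label of the cells was set against their markers. Kit, the SCF receptor gene, had 1646 with control EVs and 1529 with CML EVs, as scaled signal. Ly6a, which encodes Sca-1, had 1548 and 1985, and Cd34 had 24845 and 21996. All of these were well above background, whereas Mecom, a regulator of the most primitive stem cells, was not well above background on either array. Other stem cell markers were, among them Procr (1277 with control EVs and 1225 with CML EVs) and Hlf (386 and 361). Mpo, the granule enzyme myeloperoxidase of granulocyte and monocyte precursors, was also measured, with 213990 and 258638. RNA came from whole cultures, so more or fewer cells of a lineage and more or less RNA per cell cannot be told apart.

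Lineage transcription factors bind short DNA motifs and act in pairs that oppose each other. PU.1, the ETS factor encoded by Spi1, and GFI1, a zinc finger repressor, act in granulocytic and monocytic development. GATA1, TAL1 and GFI1B act in red cell and platelet lineages, in which KLF1 favors red cells and FLI1 favors megakaryocytes. GATA2, RUNX1 and IKZF1 act already in stem and progenitor cells. PU.1 and GATA1 restrain each other, as do FLI1 and KLF1. GFI1 and GFI1B are paralogs with nearly the same DNA-binding zinc fingers, and each can repress the gene of the other.

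The GFI1 and GATA motifs were looked for in the promoters, because factors of these families bind one another's genes. RefSeq (GRCm38.p6) windows of 250 bases before to 50 bases after a gene start were available for 8 of the 10 genes, in 13 windows, and not for Spi1 and Fli1. The motif letters were chosen after the windows had been seen. On either strand, the GFI1 letters AAATCA occurred in 14% of all 32851 windows and the GATA letters GATAA in 25.4%. The windows of Gfi1, Gfi1b, Tal1 and Klf1 are shown to set the pair of paralogs beside the erythroid genes. Capitals mark these letters or their reverse complements, TGATTT and TTATC.
Gfi1, chr5:107725756-107726055, minus strand: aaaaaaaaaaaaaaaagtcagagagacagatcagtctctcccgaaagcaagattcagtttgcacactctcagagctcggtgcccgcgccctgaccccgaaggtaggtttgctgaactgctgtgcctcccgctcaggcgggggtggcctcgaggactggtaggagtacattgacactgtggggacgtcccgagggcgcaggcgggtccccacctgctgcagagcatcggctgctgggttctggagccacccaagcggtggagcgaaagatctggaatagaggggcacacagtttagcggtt
Gfi1, chr5:107724294-107724593, minus strand: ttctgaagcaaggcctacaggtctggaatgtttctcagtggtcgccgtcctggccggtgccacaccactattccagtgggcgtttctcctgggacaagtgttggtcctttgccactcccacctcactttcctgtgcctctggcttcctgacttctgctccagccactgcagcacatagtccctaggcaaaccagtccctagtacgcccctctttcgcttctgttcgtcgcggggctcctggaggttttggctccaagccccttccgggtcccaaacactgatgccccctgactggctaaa
Gfi1b, chr2:28621933-28622232, minus strand: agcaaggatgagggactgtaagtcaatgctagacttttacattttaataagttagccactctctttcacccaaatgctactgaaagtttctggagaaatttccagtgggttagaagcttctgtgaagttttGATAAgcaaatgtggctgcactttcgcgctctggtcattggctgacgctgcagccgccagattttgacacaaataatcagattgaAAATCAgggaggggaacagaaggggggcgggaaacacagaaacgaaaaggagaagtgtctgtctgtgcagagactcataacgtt
Tal1, chr4:115056176-115056475, plus strand: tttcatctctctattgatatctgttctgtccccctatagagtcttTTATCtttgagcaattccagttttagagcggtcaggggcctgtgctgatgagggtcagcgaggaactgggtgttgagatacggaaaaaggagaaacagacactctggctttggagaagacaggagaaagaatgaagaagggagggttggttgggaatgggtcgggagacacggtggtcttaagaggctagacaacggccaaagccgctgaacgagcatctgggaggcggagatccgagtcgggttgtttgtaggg
Klf1, chr8:84901732-84902031, plus strand: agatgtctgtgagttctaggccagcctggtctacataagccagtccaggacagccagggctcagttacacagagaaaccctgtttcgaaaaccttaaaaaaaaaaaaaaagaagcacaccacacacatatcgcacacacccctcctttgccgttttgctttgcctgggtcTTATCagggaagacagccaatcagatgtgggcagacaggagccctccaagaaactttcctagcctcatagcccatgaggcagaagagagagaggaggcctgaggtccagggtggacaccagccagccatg

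Neither Gfi1 window held the GFI1 or the GATA letters. The Gfi1b window held 1 of each, in which the GATA letters precede the GFI1 letters. The upstream Tal1 window and the Klf1 window held 1 GATA match each. Of the windows not shown, 1 of Ikzf1 (chr11:11689927-11690226) held 2 GFI1 matches, and the others held neither motif. A window of Runx1 (chr16:92826025-92826324) held the RUNX letters TGTGGT 2 times and the Klf1 window held them 1 time, against 16.8% of all windows with at least 1. The CACCC letters CCACACCC of KLF1, in 3.56% of all windows, and the letters GAGGAAG of PU.1, in 13.6%, were in none of the 13. The shorter ETS letters GGAAG, which GAGGAAG contains, were in 71.4% of all windows, and the E-box CAGNTG of TAL1 in 51.4%. Such matches describe the letters only; binding was not measured.

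Gfi1 stood apart from the other lineage regulators. Its mRNA, which encodes a repressor required for neutrophil development, gave 3219 ± 322 (scaled signal ± scanner error) with control EVs and 6311 ± 631 with CML EVs. The signal with CML EVs was thus 1.96-fold that with control EVs, a log2 ratio of 0.97 ± 0.20. It remained between 1.80- and 2.06-fold over 12 alternative ways of processing. Several of these, such as the deposited values and the filters on dim probes, left the ratio of this bright probe unchanged. Of all genes measured, 0.44% had a higher ratio. Among the 2128 genes with a mean signal at least as high, 3 exceeded it: Cebpe (6778 with control EVs and 13580 with CML EVs), Chil3 (2.03-fold) and Elane (2.27-fold). Cebpe encodes a regulator of granulocyte maturation, Chil3 a chitinase-like protein of myeloid cells, and Elane the neutrophil elastase of primary granules.

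The other Gfi1 probe, matched to the same transcript, was dim. It gave 11.6 ± 2.90 with control EVs, not well above background, and 19.1 ± 3.36 with CML EVs, well above background. This gives a bound only, 1.47-fold higher with CML EVs, which leaves out the scanner error. That error was 0.44 for the log2 ratio of this probe, so the bound is no firm lower limit.

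Spi1, which encodes PU.1, had the next highest ratio of the 10 genes. Cells given control EVs had 568 ± 56.9 and those given CML EVs 701 ± 70.1, 1.23-fold higher with a log2 ratio of 0.30 ± 0.20. This difference exceeded the scanner error, and 5.55% of all genes had a higher ratio. Together, the granulocytic and myeloid regulators had a median log2 ratio of 0.64, with both genes higher with CML EVs, against a median of 0.0065 over all genes.

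**Figure D1:**
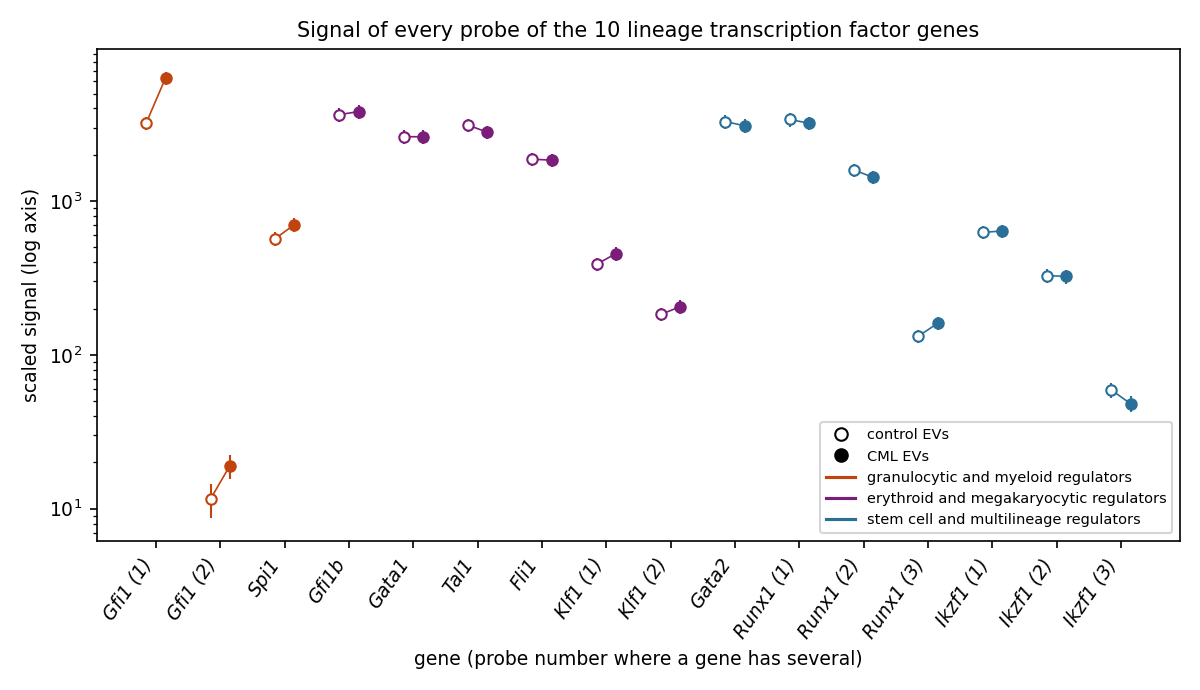
Scaled signal (log axis) of all 16 probes of the lineage transcription factor genes, with probe numbers where a gene has several; open points are the array of cells given control EVs, filled points that of cells given CML EVs, and bars the scanner software's error. The line of the brighter Gfi1 probe rises from 3219 to 6311, whereas that of Gata1, from 2622 to 2616, is level; heights of different probes are not to be compared.

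Erythroid and megakaryocytic regulators differed little between the arrays. Gata1, the regulator of red cell and platelet maturation, gave 2622 ± 262 with control EVs and 2616 ± 262 with CML EVs, a log2 ratio of -0.0034 ± 0.20 whose sign turned with median scaling. Gfi1b, the paralog of Gfi1 that is required for erythroid and megakaryocytic development, had 3645 ± 364 and 3813 ± 381, a log2 ratio of 0.065 ± 0.20. Both differences were within the scanner error.

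Klf1, which encodes the activator of globin and other late erythroid genes, had the highest ratio of these 5 genes. It gave 388 ± 38.9 with control EVs and 455 ± 45.6 with CML EVs, 1.17-fold higher with a log2 ratio of 0.23 ± 0.20. Its second probe had 183 and 206, a log2 ratio of 0.16 ± 0.21. Both Klf1 probes were thus higher with CML EVs, one beyond and one within its scanner error, and 8.55% of all genes had a ratio above that of the brighter probe.

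Tal1, a basic helix-loop-helix factor that works with GATA1 and LMO2, had the lowest ratio of the 10 genes. It gave 3117 ± 312 with control EVs and 2802 ± 280 with CML EVs, 1.11-fold lower with a log2 ratio of -0.15 ± 0.20. Of all genes, 15.2% had a lower ratio, and the difference was within the scanner error. Fli1, the ETS factor of megakaryocytes, had 1872 ± 187 and 1842 ± 184, a log2 ratio of -0.023 ± 0.20 that turned positive with median scaling.

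The median log2 ratio of these 5 genes was -0.0034 (0.067 with median scaling). With CML EVs 2 were higher and 3 lower, and with median scaling 4 were higher and 1 lower. None differed by 25% in either direction (higher over lower signal), a size that 5.01% of all genes reached in the higher and 5.25% in the lower direction.

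The 3 genes of stem and multilineage regulators also lay close to equality. Gata2, which maintains stem cells and precedes GATA1 in erythroid development, gave 3286 ± 329 with control EVs and 3085 ± 309 with CML EVs, a log2 ratio of -0.091 ± 0.20. Runx1, the core binding factor subunit needed for the emergence of stem cells and for megakaryocytes, had 3389 ± 339 and 3208 ± 321, a log2 ratio of -0.079 ± 0.20 that changed sign under alternative processing. Ikzf1, which encodes Ikaros, a factor of lymphoid and myeloid development, had 625 ± 62.6 and 639 ± 63.9, a log2 ratio of 0.031 ± 0.20 that also changed sign. All of these were within the scanner error, and the median of the 3 was -0.079.

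Probes of Runx1 and of Ikzf1 gave unlike ratios. The second Runx1 probe, matched to the same transcript as the first, went from 1594 with control EVs to 1423 with CML EVs, a log2 ratio of -0.16 ± 0.20. The remaining probe, matched to another Runx1 transcript, went from 132 to 160, a log2 ratio of 0.28 ± 0.21. The brighter pair of Runx1 probes was thus lower and the dim probe higher with CML EVs, the latter beyond its scanner error.

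For Ikzf1, the probe that shares its transcript with the brightest had 328 with control EVs and 323 with CML EVs, a log2 ratio of -0.019 ± 0.20. Its remaining probe, matched to another transcript, had 59.2 and 48.2, a log2 ratio of -0.30 ± 0.23. This was the lowest ratio of the 16 probes, from one of the dimmer spots. Whether transcript forms differed between the cultures was not tested.

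**Figure D2:**
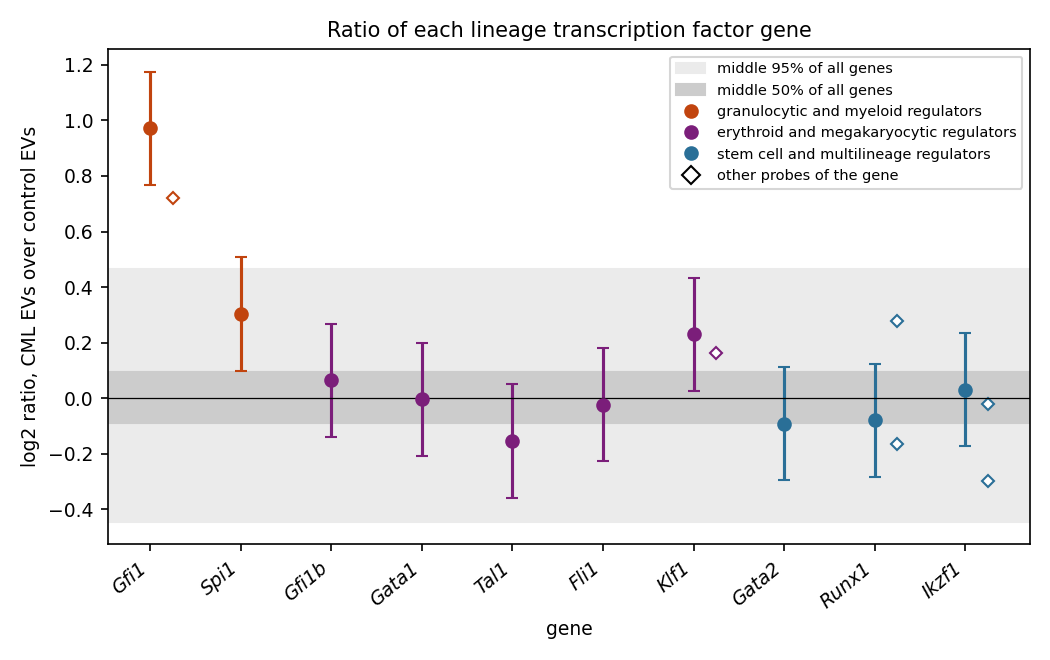
Log2 ratio of scaled signal, CML EVs over control EVs, of the lineage transcription factor genes coloured by role: filled points are the probe used for each gene with bars for the scanner error, open diamonds its other probes, and the shaded bands the middle 50% and 95% of all genes. Gfi1 lies at 0.97, outside the bands, and the other 9 genes lie between -0.15 and 0.30; the diamond of Gfi1 is a dim probe with a bound only.

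The granulocytic regulators were compared with the erythroid and megakaryocytic ones by the difference of their medians. This was 0.64 on the log2 scale, corresponding to 1.56-fold, with 2 genes on one side and 5 on the other. It rested on Gfi1: without it, an alternative chosen after seeing the data, the difference was 0.31. Gfi1 lay above Klf1, the highest gene of the erythroid and megakaryocytic group, by 0.74, corresponding to 1.67-fold. Spi1 lay above Klf1 by 0.073, which is within the scanner error of either gene.

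Opposed pairs of regulators were also set side by side. The log2 ratio of Gfi1 exceeded that of its paralog Gfi1b by 0.91 ± 0.29, so that the signal of Gfi1 relative to Gfi1b was 1.87-fold higher with CML EVs. Spi1 exceeded Gata1 by 0.31 ± 0.29. Klf1 exceeded Fli1 by 0.25 ± 0.29, and Gata1 exceeded Gata2 by 0.088 ± 0.29. Of these pairs, Gfi1 with Gfi1b differed by several times the scanner error, Spi1 with Gata1 by little more than it, and the other two by less.

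Of the 10 genes, 1 was at least 1.5-fold higher (Gfi1), where 1.52% of all genes were, and none was at least 1.5-fold lower. At 2-fold, which 0.395% of all genes reached in the higher and 0.224% in the lower direction, the count was 0. With median scaling it was 1 (Gfi1, higher), where 65 of all 13412 genes were at least 2-fold higher. With CML EVs 5 genes were higher and 5 lower, and the median log2 ratio of the 10 was 0.014. Of the 9 genes other than Gfi1, 7 were within the scanner error of equality, Spi1 and Klf1 being the exceptions. That error is wider than the spread of repeated spots, so being within it does not show equality.

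**Figure D3:**
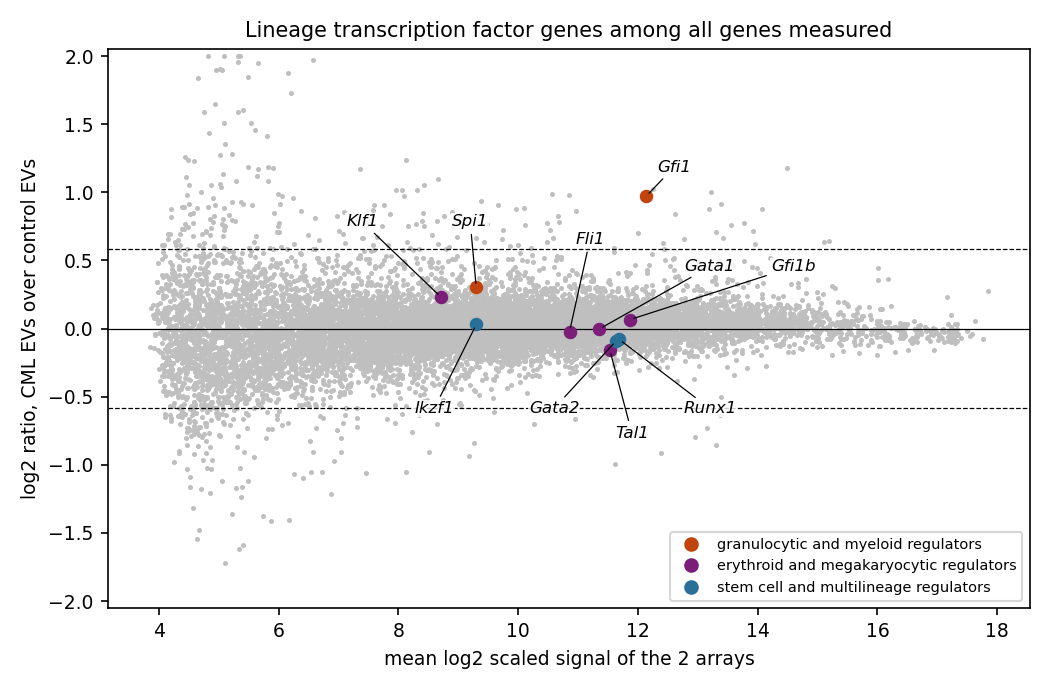
Log2 ratio (vertical axis, CML EVs over control EVs) plotted by the mean of the 2 log2 signals (horizontal axis) for 13412 genes well above background on both (gray) and for the lineage transcription factor genes (coloured by role). Dashed lines mark 1.5-fold, and 4 genes beyond the axis are drawn at its edge. Gfi1, at 0.97, lies beyond the 1.5-fold line, where 3 genes with a mean signal at least as high lie above it, whereas the other 9 lie between the dashed lines.

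Partners of these factors were examined in 6 lists written from general knowledge. The GATA1, TAL1 and LMO2 complex assembles on erythroid and megakaryocytic genes through adaptors such as LMO2 and LDB1. All 12 partners were measured, of which 2 were higher and 10 lower with CML EVs (5 and 7 with median scaling). Their median log2 ratio was -0.087. None differed by 25%, a size that 5.01% of all genes reached in the higher and 5.25% in the lower direction. Zfpm1, which encodes the GATA1 cofactor FOG1, had 5540 with control EVs and 4658 with CML EVs, a log2 ratio of -0.25. Cbfa2t3, which encodes the corepressor ETO2, had 2944 and 2591 (-0.18), and Tcf4, an E protein partner of TAL1, had 2672 and 2384 (-0.16). Lyl1, a paralog of Tal1, had 21388 and 21440 (0.0035).

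GFI1 and GFI1B repress through LSD1 (Kdm1a), CoREST proteins and histone deacetylases. Of 9 corepressor genes, 5 were higher and 4 lower with CML EVs (8 and 1 with median scaling), with a median log2 ratio of 0.029. None was past 25%, against 5.01% of all genes in the higher and 5.25% in the lower direction. Rcor2, a CoREST gene, had 3749 with control EVs and 3221 with CML EVs, a log2 ratio of -0.22. The deacetylase gene Hdac2 had 66.1 and 73.2 (0.15), Ehmt2, a histone H3 lysine methyltransferase gene, 16809 and 18571 (0.14), and Prmt1, an arginine methyltransferase gene, 21128 and 21102 (-0.0018).

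Of 6 partners and relatives of RUNX1, 4 were measured on both arrays, 1 higher and 3 lower, with a median log2 ratio of -0.14. Cbfb, the obligate partner subunit, had 9726 with control EVs and 8912 with CML EVs (-0.13). Runx3 had 1841 and 1618 (-0.19), Cbfa2t2, another ETO family gene, 1320 and 1189 (-0.15), and Runx2 44.8 and 49.3 (0.14). Other probes of the latter pair went both ways, between -0.35 and 0.058 for Cbfa2t2 and at -0.28 for Runx2. Runx1t1 was well above background with CML EVs only, at 16.8, a bound of at least 1.29-fold higher, and Kmt2a was not matched to a probe.

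Among 12 other ETS factors, relatives of PU.1 and FLI1, 4 were higher and 8 lower, which became 10 and 2 with median scaling; the median was -0.039. Spic, known for red pulp macrophages, had 61.8 with control EVs and 88.9 with CML EVs, 1.44-fold higher. It was the 1 gene of the 61 measured partners past 25%, or 1.64%, against 5.01% of all genes in the higher direction. The count was 3 with median scaling, where 990 of all 13412 genes were higher past 25%. It was 2 with quantile normalization, where 758 were. Ets1 had 222 and 276 (0.31), where another probe had 0.64. Elf2 had 1347 and 1190 (-0.18), and Etv6, a stem cell and platelet regulator, had 8085 and 7727 (-0.065).

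Of 9 other Ikaros and GATA family genes, 7 were measured, 2 higher and 5 lower, with a median of -0.099, which was 0.026 with the mean of all probes. Ikzf3, known from lymphocytes, had 50.9 with control EVs and 41.1 with CML EVs (-0.31). Gata3, a T cell and stem cell factor, had 410 and 369 (-0.15), Ikzf2 had 368 and 408 (0.15), and Ikzf5 had 428 and 389 (-0.14). Gata4 and Gata6, known from heart and gut, were not well above background on either array.

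Of 19 other erythroid and megakaryocytic factors, 17 were measured, 6 higher and 11 lower (11 and 6 with median scaling), with a median of -0.030. Klf3, a repressor induced by KLF1, had 1309 with control EVs and 1596 with CML EVs (0.29). Sox6, a fetal globin repressor, had 52.2 and 45.1 (-0.21), Meis1, a HOX cofactor of stem cells and megakaryocytes, 4421 and 3877 (-0.19), and Nfe2, the factor of late platelet formation, 14036 and 14496 (0.046). Over the 6 lists, 20 of the 61 partners measured were higher and 41 lower, which turned to 37 higher and 24 lower with median scaling, and the median log2 ratio was -0.054 (0.016 with median scaling). Of all 13412 genes, 6968 were higher and 6444 lower, and 9532 higher and 3880 lower with median scaling.

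Target genes of the factors were examined in 4 lists, some of which share genes with one another or with the partner lists. Granulocytic and myeloid targets of PU.1 and its coregulators were mostly higher with CML EVs, 11 of 14, with 3 lower (12 and 2 with median scaling). Their median log2 ratio was 0.21, and 4 of the 14 were at least 25% higher, against 5.01% of all genes. With median scaling 7 were, against 990 of all 13412 genes. Quantile normalization and normexp each gave 3, against 758 of 13412 and 331 of 13415 genes. Elane had 15311 with control EVs and 34735 with CML EVs. Prtn3, which encodes proteinase 3 of primary granules, had 8716 and 13829, 1.59-fold higher, and Ctsg, the cathepsin G gene, had 65450 and 84128, 1.29-fold higher.

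The cytokine receptor genes of this list went both ways. Csf2ra, the GM-CSF receptor α chain, had 9065 with control EVs and 11343 with CML EVs, a log2 ratio of 0.32. Csf3r, the G-CSF receptor, had 28861 and 26023, and Csf1r, the M-CSF receptor, had 10425 and 10782, log2 ratios of -0.15 and 0.049. Itgam, the CD11b integrin gene, had 4835 and 4197 (-0.20, where another probe had 0.43). Csf2ra was thus higher with CML EVs as the granule genes Elane, Prtn3 and Ctsg were, Csf1r lay close to equality, and Csf3r was lower.

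Genes known as repressed by GFI1 were set against the higher Gfi1 signal. The list is not complete and was chosen with earlier results known. It does not hold Elane or Cebpe, both higher with CML EVs. Of 15 measured, 6 were higher and 9 lower with CML EVs, with a median log2 ratio of -0.074, which lay between -0.074 and -0.0039 over the alternatives. Egr1, an early growth response gene, had 272 with control EVs and 208 with CML EVs, 1.31-fold lower. It was the 1 gene of the list past 25%, which 5.25% of all genes reached in the lower and 5.01% in the higher direction. With median scaling 2 genes were past it in the higher direction and 0 in the lower, against 990 and 470 of all 13412 genes. Quantile normalization gave 2 higher and 1 lower, and normexp background correction 0 in either direction. Egr2, a relative of Egr1, had 214 and 265 (0.31), in the other direction. Meis1 and Hoxa9, a HOX gene of stem cells at 348 and 325 (-0.10), were lower, while Id2, an inhibitor of helix-loop-helix factors at 548 and 585 (0.094), and Irf8, a monocyte and dendritic cell factor at 2690 and 2936 (0.13), were higher.

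Megakaryocytic targets of GATA1, FLI1 and RUNX1 were mostly lower with CML EVs although their regulators lay near equality. Of 17 measured, 2 were higher and 15 lower (3 and 14 with median scaling), with a median log2 ratio of -0.24. Past 25% were 7 lower and 1 higher, against 5.25% and 5.01% of all genes, and none reached 1.5-fold. With median scaling 4 were lower past 25%, against 470 of all 13412 genes.

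Genes of the von Willebrand factor receptor complex were among the lower ones. Gp1bb had 337 with control EVs and 249 with CML EVs, 1.35-fold lower, and Gp5 had 576 and 426, also 1.35-fold lower. Gp1ba had 867 and 671, 1.29-fold lower, and Gp9 had 2650 and 2088, 1.27-fold lower. All 4 chains of the complex were thus past 25% in the same direction, although Gp1ba and Gp9 were not with median scaling.

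Granule and cytoskeletal genes of platelets varied. Selp, the P-selectin gene, had 433 with control EVs and 328 with CML EVs, 1.32-fold lower, with other probes between -0.60 and -0.21 on the log2 scale. Pf4, which encodes platelet factor 4, had 55955 and 52699, a log2 ratio of -0.086. Myl9, a myosin light chain gene, had 120 and 163 (0.44), the largest difference in the higher direction. Tubb1, the platelet β1-tubulin gene, was well above background with control EVs only, at 27.7, a bound of at least 1.73-fold lower with CML EVs.

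Erythroid targets of GATA1 and KLF1 were measured in part. Of 20 listed genes, 13 were well above background on both arrays, 2 on one (among them Slc4a1, an anion exchanger of the red cell membrane), 3 on neither (Alas2, the erythroid heme synthesis enzyme, Epb42 and Trim10), and Ahsp and Hbb-bs were not matched to a probe. Of the 13, 6 were higher and 7 lower with CML EVs (9 and 4 with median scaling), and the median log2 ratio was -0.016 (0.055 with median scaling). Hbb-bt, an adult β-globin gene, had 510 with control EVs and 314 with CML EVs, 1.62-fold lower. Hba-a1, an α-globin gene, had 980 and 1149, a log2 ratio of 0.23 in the other direction. Globin genes have near-identical copies, whose transcripts one probe may read together. Car2, the carbonic anhydrase gene, had 1567 and 1388 (-0.18), and Urod, of heme synthesis, had 7949 and 8327 (0.067).

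**Figure D4:**
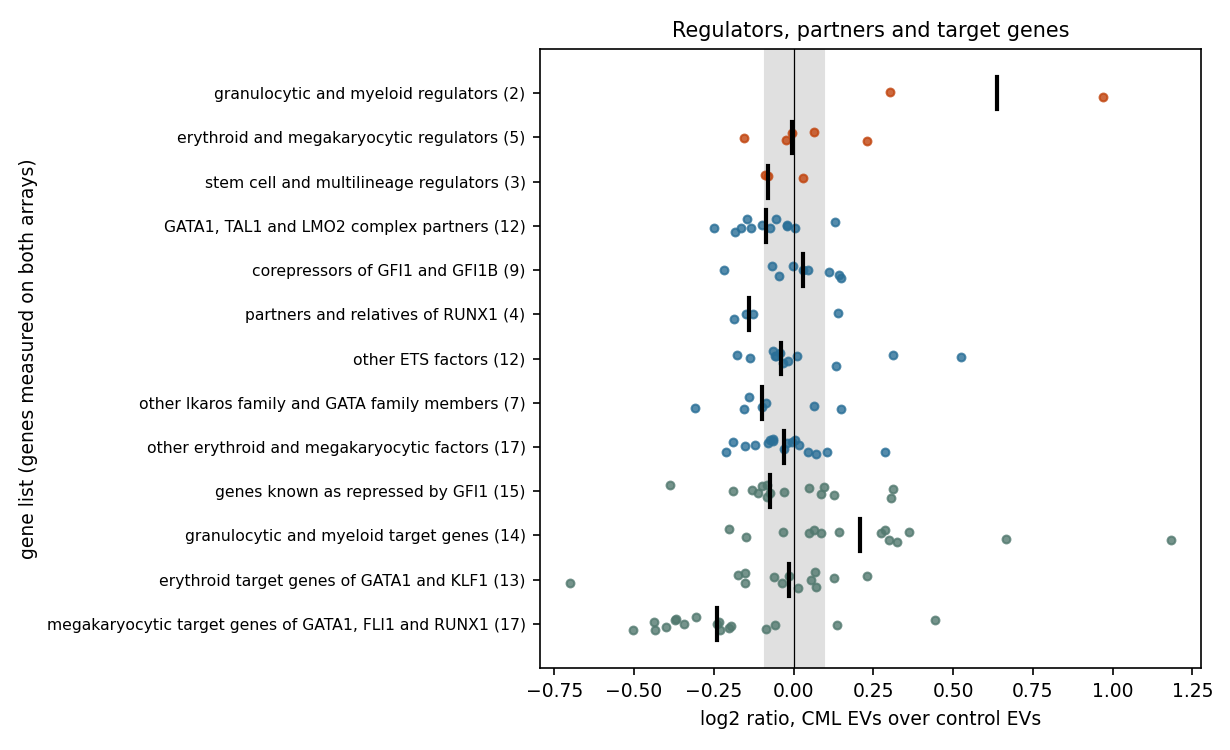
Log2 ratio, CML EVs over control EVs, of each gene measured on both arrays in the lists of lineage regulators (orange), their partners (blue) and targets (green), with a black bar at the median of each list and the middle 50% of all genes shaded. Granulocytic targets, with a median of 0.21, and megakaryocytic targets, with a median of -0.24, lie to opposite sides of equality, and the partner lists have medians between -0.14 and 0.029.

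Markers of cell types that the cultures could hold were measured beside these regulators. Of 16 stem and progenitor markers, 14 were measured, 1 higher (Ly6a) and 13 lower with CML EVs, with a median log2 ratio of -0.18. Signals of these 14 genes added up to 48331 in cells given control EVs and 43043 in those given CML EVs. Of 9 eosinophil markers, 7 were measured, 6 higher and 1 lower, with a median of 0.58 and a sum of 8595 and 12770. Il5ra and Ccr3, receptor genes of eosinophils, were not well above background on either array. Siglecf, another receptor gene of this list, was on both, with 232 and 254 (0.13). What part cells of these types had in the ratios of Gfi1 and Spi1 was not tested.

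Mast cell and basophil markers, in which GATA2 is active, were measured for 12 of 12 genes, 7 higher and 5 lower, with a median of 0.039 and summed signals of 49632 (control EVs) and 52491 (CML EVs). Of 10 B cell markers 3 were measured, with a median of 0.032 and a sum of 1038 and 1043. Cd79a, Ms4a1 and Blk were not well above background on either array. Of 10 T and NK cell markers 4 were measured, with a median of -0.087 and a sum of 2040 and 1926. Cd3g, Cd8a and Ncr1 were not well above background. Of 10 markers of spleen stroma and endothelium 4 were measured, with a median of -0.018 and a sum of 953 and 980. Col1a1, Col3a1, Cdh5, Cxcl13 and Des were not well above background.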

How the data were processed

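RNA was hybridized to 2 one-colour mouse arrays (Agilent), 1 per condition. The authors' deposited scanner files hold a background-subtracted intensity per spot with its error and flags, made with Agilent Feature Extraction 12.0.3.1 per the submitters' processing notes; the authors' value table gives that intensity multiplied by a factor for each array. Here control and outlier spots were left out, arrays were scaled, following the methods, so that the mean of spots was 2500 when the 2% at each end were left aside, and log2 values of repeated spots were averaged. The factors equaled those of the value table, and no test across samples was made with 1 array per condition.

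Probes were named through their RefSeq transcript (gene table of GRCm38.p6), which gave 32994 of 56604 probes a symbol. Where a gene had several probes, the brightest with CML EVs stood for it. A gene counted as measured if well above background on both arrays. A gene above it on 1 array has a bound, the brighter signal over the dim one. Where the lowest value flagged well above background on the dim array (12.9 with control EVs, 13.6 with CML EVs) was higher, it replaced the dim signal. Bounds leave out the scanner error. The genes and the 19 lists (3 roles, 6 of partners, 4 of targets and 6 of cell type markers), written from general knowledge, were chosen with earlier results of these data known. Named were the 10 genes with every probe and, of each partner, target and marker list, the 3 measured genes with the largest absolute log2 ratio and the 1 with the highest signal; further platelet, receptor and repressed genes, the 3 genes above Gfi1, and marker genes that show the label or absence of a cell type were named after their values were seen. A few genes of the lists are counted but not reported by name here. Alternatives covered scaling (median, mean of all spots, 75th percentile), quantile normalization, normexp with offset 50 (limma 3.58.1, R 4.3.3), the deposited values, which probe stood for a gene, dim probes, outlier flags, thresholds of fold and the genes of a role group. The steps were tested on simulated data. Computation used Python 3.11.15, numpy 2.4.6 and pandas 2.3.3. The number of arrays limits the precision.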

Additional observations from a re-analysis of the deposited data

How the results depend on the processing

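No paired analysis was possible because the design has 1 array of each kind, none of which could be left out. Over 12 alternatives, every ratio of the 10 lineage genes moved by less than its scanner error, although Gata1, Fli1, Ikzf1 and Runx1, all near equality, changed sign. Several alternatives, such as the deposited values and the filters on dim probes, left all 10 ratios unchanged. Median scaling moved all genes by 0.070 and gave medians of 0.71 for the granulocytic, 0.067 for the erythroid and megakaryocytic and -0.0090 for the stem and multilineage regulators, and of -0.0039, 0.28, 0.055 and -0.17 for the GFI1-repressed, granulocytic, erythroid and megakaryocytic targets. The granulocytic target median was 0.15 with quantile normalization and 0.16 with normexp. With the mean of all probes the granulocytic regulators had 0.57, their difference from the erythroid and megakaryocytic ones was 0.58, and the GFI1-repressed genes had -0.031, which was -0.0044 with the mean of probes above background. Without a filter on dim probes the erythroid targets had 0.035. Without Fli1 and Tal1 and with Gata2, the erythroid and megakaryocytic median was 0.031 and the difference 0.61. Without Spi1 the granulocytic value was 0.97 and the difference 0.97; without Gfi1, chosen after seeing the data, they were 0.30 and 0.31. At 2-fold, 0 of the 10 genes were called, or 1 (Gfi1) when median scaling was also used. Over all genes, 204 higher and 158 lower at 1.5-fold became 83 and 24 with normexp, 467 and 516 when 1 array above background sufficed, 1332 and 1415 without a filter, 672 and 704 at 25% and 53 and 30 at 2-fold. The cause of these differences was not tested. Signal over background limits the dim probes: probes spotted 10 times had a median SD of the log2 ratio of 0.034 at a log2 signal of 8 or more and 0.15 below.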

Other observations

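Genes of eosinophil granules, which the target lists above did not include, were among those with higher signal in cells given CML EVs. Epx, which encodes eosinophil peroxidase, had 1252 with control EVs and 2150 with CML EVs, 1.72-fold higher. Prg3, a major basic protein gene, had 499 and 792, 1.59-fold higher, Ear6, an eosinophil-associated ribonuclease gene, had 1214 and 1924, 1.58-fold higher, and Prg2, which encodes major basic protein, had 4540 and 6798, a log2 ratio of 0.58. Ear2 and Ear1, relatives of Ear6, had 636 and 643 and 220 and 210, log2 ratios of 0.015 and -0.072. Of the 3 ribonuclease genes measured here, Ear6 was thus the 1 past 1.5-fold. Of the 7 eosinophil markers measured, 3 were at least 1.5-fold higher, against 1.52% of all genes. The count was 4 with median scaling, where 271 of all 13412 genes were, and 2 with normexp, where 83 of 13415 were.

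Stem and progenitor markers were lower by smaller amounts. Robo4, an endothelial and stem cell receptor gene, had 111 with control EVs and 74.6 with CML EVs, 1.48-fold lower. Slamf1, which encodes CD150, had 286 and 221, 1.29-fold lower, and Angpt1, an angiopoietin gene, had 2083 and 1657, 1.26-fold lower. Ly6a was the exception, 1.28-fold higher. Mast cell and basophil genes went both ways: Il4 had 139 and 111 (1.26-fold lower), Prss34, a basophil protease gene, had 2357 and 2901 (1.23-fold higher), and Mcpt8, another basophil protease gene, had 26399 and 27860 (1.06-fold higher). Lymphocyte and stroma markers also went both ways. Of those measured, 2 B cell markers were higher and 1 lower, and 1 T and NK cell marker was higher and 3 lower. Of the stroma and endothelium markers 1 was higher and 3 lower (4 and 0 with median scaling). Higher were Cd3d (141 and 176), Cd22 (82.0 and 97.4) and Kdr, an endothelial receptor gene (116 and 159, 1.37-fold). Lower were Cd4 (544 and 484), Vpreb1 (222 and 195) and Pdgfrb (364 and 354).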
